A study of Mus musculus with 64 samples.

Results

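The 8 genes described here handle zinc and related metals: the metallothioneins Mt1, Mt2 and Mt3, the exporters Slc30a1 and Slc30a10, the importers Slc39a4 and Slc39a14, and the metal-sensing transcription factor Mtf1. They were taken by gene symbol from 2 tables of read counts and are 8 of 55414 gene IDs in the table of the acute cohort and 8 of 55573 in that of the continuous cohort. After a filter on low counts, 7 of the 8 were tested in hippocampus, where Slc39a4 was near the limit of detection, and 7 in liver, where Mt3 was.

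All mice were adult males of 10 to 18 weeks, F1 hybrids of 129sv mothers and C57BL/6J fathers. AS mice (Ube3a m-/p+) model Angelman syndrome: they inherited the Ube3atm1Alb deletion from the mother, so their neurons, in which the paternal copy is silent, lack the ubiquitin ligase UBE3A, while other cells such as hepatocytes keep the paternal copy. WT mice carried no deletion. In the acute cohort, hippocampal RNA was sequenced 3 h after an injection under the skin of vehicle or of 3 mg/kg corticosterone (CORT), the main glucocorticoid of mice, with 6 mice in each of WT vehicle, WT CORT, AS vehicle and AS CORT. In the continuous cohort, hippocampus and liver were sequenced after 5 days with a pellet of 20 mg CORT in cholesterol or a vehicle pellet of cholesterol, with 5 mice in each of the same 4 groups; 2 hippocampal libraries, H9 (AS vehicle) and H13 (WT vehicle), were left out, as the study did.

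Metallothioneins are small cysteine-rich proteins that bind zinc and copper in the cytosol. MTF1 binds metal response elements when free zinc rises and switches on metallothionein genes and the zinc exporter gene Slc30a1, and the genes of Mt1 and Mt2 are also classic targets of glucocorticoids. In the brain Mt1 and Mt2 are made mainly by astrocytes, and Mt3 is the form that marks the nervous system. SLC39 (ZIP) proteins bring zinc into the cytosol and SLC30 (ZnT) proteins move it out. Slc39a14 also carries iron and manganese, and Slc30a10 is known above all as a manganese exporter. Bulk RNA cannot tell fewer cells of a type from less RNA per cell.

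In GENCODE M21 (GRCm38) the members lie on 5 chromosomes. Mt1 (ENSMUSG00000031765, chr8:94179082-94180327), Mt2 (ENSMUSG00000031762, chr8:94172664-94173568) and Mt3 (ENSMUSG00000031760, chr8:94152607-94154146) are neighbours on the plus strand. The exporters Slc30a1 (ENSMUSG00000037434, chr1:191906767-191913247) and Slc30a10 (ENSMUSG00000026614, chr1:185454848-185468762) and Mtf1 (ENSMUSG00000028890, chr4:124802104-124849800) are also on the plus strand. The importers Slc39a4 (ENSMUSG00000063354, chr15:76612383-76617384) and Slc39a14 (ENSMUSG00000022094, chr14:70303469-70351425) are on the minus strand.

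The coding sequences of the 3 metallothioneins are shown because they display the property that defines the family. They lie on chromosome 8 of GRCm38, plus strand, and are given from the start codon to the stop codon with every TGT or TGC codon, the codons of cysteine, in capitals.
Mt1 (chr8:94179311-94180193, 3 exons): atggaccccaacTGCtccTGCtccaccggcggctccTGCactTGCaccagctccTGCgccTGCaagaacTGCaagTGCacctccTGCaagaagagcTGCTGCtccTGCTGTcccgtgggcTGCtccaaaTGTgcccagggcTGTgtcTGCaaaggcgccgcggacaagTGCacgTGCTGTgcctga
Mt2 (chr8:94172848-94173427, 3 exons): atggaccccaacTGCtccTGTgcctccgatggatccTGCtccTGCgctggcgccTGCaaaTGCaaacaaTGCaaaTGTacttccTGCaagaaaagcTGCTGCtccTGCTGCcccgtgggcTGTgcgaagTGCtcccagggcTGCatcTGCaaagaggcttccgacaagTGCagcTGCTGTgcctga
Mt3 (chr8:94152800-94154010, 3 exons): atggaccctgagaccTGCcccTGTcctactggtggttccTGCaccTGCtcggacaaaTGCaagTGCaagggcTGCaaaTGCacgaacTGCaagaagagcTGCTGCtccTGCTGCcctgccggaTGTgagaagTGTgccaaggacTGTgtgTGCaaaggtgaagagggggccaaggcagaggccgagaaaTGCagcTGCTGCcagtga
Each sequence holds 20 cysteine codons, which make 32.8% of the 61 codons before the stop in Mt1 and Mt2 and 29.4% of the 68 in Mt3. The coding sequences of Mt1 and Mt2 are 79.6% identical, those of Mt1 and Mt3 68.9% and those of Mt2 and Mt3 69.2%. The longest run of bases that any pair of their mRNAs shares is 20 bases for Mt1 with Mt2 and for Mt2 with Mt3 and 27 for Mt1 with Mt3, against sequencing reads of 100 bases.

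Promoters are shown because 2 signals that bear on these genes, zinc and CORT, act on DNA sites. RefSeq promoter sequences (GRCm38.p6) were found for 6 of the 8 genes, and the 250 bases before the RefSeq start are given for the 4 that hold a metal response element core, TGCACNC or TGCGCNC on either strand, here in capitals.
Mt1 (chr8:94178839-94179088, plus strand): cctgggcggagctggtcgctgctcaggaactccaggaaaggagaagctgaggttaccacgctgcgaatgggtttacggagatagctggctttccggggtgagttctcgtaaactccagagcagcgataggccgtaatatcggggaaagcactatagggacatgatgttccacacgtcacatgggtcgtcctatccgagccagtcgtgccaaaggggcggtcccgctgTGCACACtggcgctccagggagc
Mt2 (chr8:94172368-94172617, plus strand): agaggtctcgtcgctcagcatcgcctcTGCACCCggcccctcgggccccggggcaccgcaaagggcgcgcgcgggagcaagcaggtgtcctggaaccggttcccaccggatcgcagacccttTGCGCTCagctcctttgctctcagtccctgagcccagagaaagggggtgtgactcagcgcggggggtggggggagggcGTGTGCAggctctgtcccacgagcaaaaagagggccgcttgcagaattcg
Slc30a1 (chr1:191906531-191906780, plus strand): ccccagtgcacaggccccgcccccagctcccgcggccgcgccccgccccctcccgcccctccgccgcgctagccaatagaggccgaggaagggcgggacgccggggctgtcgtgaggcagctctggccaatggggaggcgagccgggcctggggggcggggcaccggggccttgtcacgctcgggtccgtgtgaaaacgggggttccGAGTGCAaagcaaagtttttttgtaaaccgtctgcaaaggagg
Slc30a10 (chr1:185454598-185454847, plus strand): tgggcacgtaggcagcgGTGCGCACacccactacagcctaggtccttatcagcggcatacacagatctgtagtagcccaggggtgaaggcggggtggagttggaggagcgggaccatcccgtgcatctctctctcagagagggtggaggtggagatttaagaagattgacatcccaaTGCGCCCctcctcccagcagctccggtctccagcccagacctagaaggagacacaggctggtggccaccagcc
In these 250 bases Mt1 and Slc30a1 hold 1 core each, Mt2 holds 3, and Slc30a10 holds 3, of which 2 overlap on opposite strands. The Mt1 window ends 222 bases and the Mt2 window 230 bases before the start codon, so nearer cores are not in these counts. Either core was in 21.4% of 32851 promoters of the same length, and 3 or more were in 1.26%. The Mt3 window (chr8:94152357-94152606) and the Mtf1 window (chr4:124802299-124802548) hold none. The palindromic site of the glucocorticoid receptor (AGAACA, any 3 bases, then TGTTCT) is in no member's window and in 0.00913% of all promoters, and its hexamer TGTTCT, searched on both strands, is in the Mtf1 window alone and in 16.1% of all promoters. The antioxidant response element core (TGAC, any 3 bases, then GC) occurs once each in the Mt2 and Slc30a1 windows, in no other member's, and in 10.2% of all promoters. In the annotated mRNA before the start codon, searched after the values were seen, Mt1 has 4 metal response element cores in 229 bases, Mt2 has 3 in 184 and Mt3 has 3 in 193, and Mt1 alone of these has an antioxidant core there. The bases between the end of the Mt2 window (94172617) and its annotated mRNA start (94172664) were in neither search. A match of letters is a description and not a binding site.

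Reads on genes numbered 19049461 to 21052967 in acute libraries, 19112929 to 21783009 in hippocampal libraries after pellets and 18612550 to 20868924 in livers. The 3 counts that were taken as the floor of a library correspond to 0.143 to 0.159, 0.133 to 0.158 and 0.144 to 0.160 CPM in these sets (CPM are counts scaled to library size with TMM factors), which covers counting error only. Neuronal markers summed to 2440 CPM or more in every hippocampal library, and hepatocyte markers to 88315 CPM or more in every liver library. Known CORT targets rose in all 3 sets, with average log2 changes of Fkbp5 of 0.96 in the acute hippocampus, 0.81 in the continuous hippocampus and 3.78 in liver. Ube3a itself did not pass the test between AS and WT mice in either hippocampal set (log2 difference 0.020 and 0.045), and in liver it was lower in AS mice (-0.52, SE 0.06, adjusted p = 0.00022 with edgeR). The allele deletes an exon, while these counts cover the whole gene. The study examined exon usage in the continuous cohort and reported lower UBE3A protein in the AS frontal cortex of both cohorts.

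Levels can be compared between genes only per length, so CPM was divided by the length of the main mRNA in kb. In the acute hippocampus the order of the medians over 24 libraries was Mt1 (557 CPM per kb), Mt3 (475), Mt2 (279), Slc39a14 (8.49), Slc30a1 (4.96), Mtf1 (4.35), Slc30a10 (2.59) and Slc39a4 (0.0739). In the continuous hippocampus Mt3 (618 CPM per kb) stood above Mt1 (540) and Mt2 (263), and the order of the others was as in the acute cohort. These medians pool vehicle and CORT mice. The median ratio of Mt3 to Mt1 CPM was 1.38 in WT vehicle, 1.09 in WT CORT and 1.73 in AS vehicle mice. It was 0.926 in AS CORT mice, where Mt1 stood above Mt3. The ranges of the neighbours Mt1 and Mt3 overlapped in both hippocampal sets, and in the acute set so did those of Mt3 and Mt2 and of Slc30a1 and Mtf1. In the continuous set Mt1 overlapped Mt2, Slc39a14 overlapped Slc30a1 and Mtf1 overlapped Slc30a10, and the other neighbours in either order were apart.

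In liver, normalised separately, the metallothioneins had lower medians and the transporters higher ones. Mt1 had a median of 76.0 CPM per kb over 20 libraries and Mt2 of 51.4, followed by Slc39a14 (43.6), Slc39a4 (26.4), Slc30a10 (17.4), Slc30a1 (7.32) and Mtf1 (2.57). These medians pool vehicle and CORT livers. The treatments did not overlap for Mt1 (at most 23.4 and at least 60.0 CPM) or Mt2 (at most 4.92 and at least 47.6 CPM). In vehicle livers every Mt2 value lay below the lowest Slc39a14 (22.1 CPM per kb) and Slc39a4 (18.3), so this order does not hold with vehicle alone. Mt3 had no read in 10 of 20 livers and at most 6 reads in any, which is 0.288 CPM. In the liver order Mtf1 stood wholly below Slc30a1 and Mt3 wholly below Mtf1, and the ranges of all other neighbours overlapped.

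**Figure D1:**
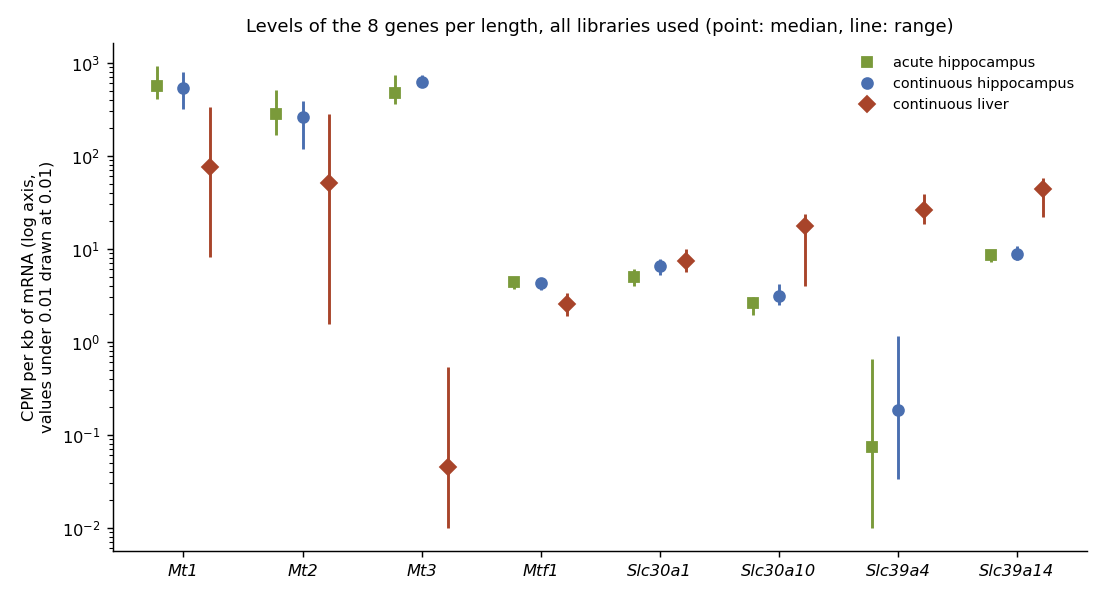
Level of each gene in CPM per kb of mRNA (log axis) in the acute hippocampus (24 libraries), the continuous hippocampus (18) and the liver (20); points are medians and lines run from the lowest to the highest library. The 3 metallothioneins lead in hippocampus, Mt3 is near 0 in liver, and Slc39a4 is near 0 in hippocampus and at a median of 26.4 in liver. Medians pool vehicle and CORT libraries, which do not overlap for Mt1 and Mt2 in liver.

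In the acute hippocampus CORT raised Mt1 and Mt2 in both genotypes. Mt2 was 107 to 146 CPM in WT vehicle mice (median 127) and 183 to 262 CPM in WT CORT mice (median 193). In AS mice it was 85.3 to 108 CPM with vehicle (median 97.0) and 136 to 182 CPM with CORT (median 153). The CORT and vehicle mice did not overlap in either genotype. It changed on the log2 scale by 0.70 (SE 0.10, adjusted p = 4.5e-05) in WT mice and 0.69 (SE 0.10, adjusted p = 3.34e-05) in AS mice with edgeR's quasi-likelihood test, which adjusts over all 14611 genes tested. On the linear scale the ratio of mean CPM was 1.63 in WT and 1.61 in AS mice.

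Mt1, the neighbour of Mt2 on chromosome 8, was 253 to 351 CPM in WT vehicle mice (median 286) and 332 to 508 CPM in WT CORT mice (median 379). AS mice had 223 to 282 CPM with vehicle (median 265) and 301 to 361 CPM with CORT (median 336). The WT groups overlapped at their edges and the AS groups did not. Its log2 change was 0.47 (SE 0.09, adjusted p = 0.00487) in WT mice and 0.36 (SE 0.09, adjusted p = 0.00979) in AS mice. When the WT groups were fitted alone, the change in WT mice missed the threshold with an adjusted p of 0.0561, where the alternatives ranged from 0.000157 to this value.

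The ratio of Mt1 to Mt2 CPM was lower with CORT in the acute hippocampus. It was 2.06 to 2.40 in WT vehicle mice and 1.72 to 2.04 in WT CORT mice. Values in AS mice were 2.49 to 2.87 with vehicle and 1.97 to 2.22 with CORT. The vehicle and CORT mice did not overlap in this ratio in either genotype. In the continuous hippocampus they did, with medians with vehicle and with CORT of 2.23 and 2.18 in WT and 2.39 and 2.35 in AS mice.

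Of the 7 members tested, 2 passed the test in WT mice, where 1.44% of all genes did, and 3 passed in AS mice, where 17.8% did. The third in AS mice was Slc30a1, which sends zinc out of the cell through the plasma membrane. It was 21.6 to 27.8 CPM in AS vehicle mice (median 26.4) and 25.9 to 31.9 CPM in AS CORT mice (median 31.4), so the groups overlapped, with a log2 fold change of 0.22 (SE 0.07, adjusted p = 0.037). In WT mice its medians were 24.2 CPM with vehicle and 23.6 CPM with CORT. The call in AS mice was lost when any 1 of 6 libraries was left out (AS CORT H19, H20, H21 or H23, or AS vehicle H14 or H16), with log2 fold changes of 0.18 to 0.21 and adjusted p of 0.065 to 0.0945.

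With the genotypes averaged, Mt1 (log2 fold change 0.42, SE 0.07, adjusted p = 0.000102) and Mt2 (0.70, SE 0.07, adjusted p = 5.73e-08) were called, 2 of 7 against 7.05% of all genes. The importer Slc39a14 had mean levels with vehicle and with CORT of 40.02 and 43.1 CPM in WT mice and of 39.6 and 43.7 CPM in AS mice, and its averaged log2 fold change of 0.12 missed the threshold (SE 0.04, adjusted p = 0.0821), except without AS vehicle H13 (0.15, adjusted p = 0.0295) or AS CORT H20 (0.14, adjusted p = 0.0466). Slc30a10 (-0.13, SE 0.05, adjusted p = 0.159) and Mtf1 (-0.075, SE 0.05, adjusted p = 0.37) were not called. Median levels of Mt3 with vehicle and with CORT were 262 and 273 CPM in WT and 237 and 239 CPM in AS mice, and it was not called in any CORT contrast of this cohort. The median log2 fold change of the 7 members was 0.10, beside -0.0027 for all genes.

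The CORT effect was compared between the genotypes through the interaction, which subtracts the WT effect from the AS effect. For Mt2 it was -0.013 on the log2 scale (95% interval -0.29 to 0.26) and for Mt1 -0.11 (-0.38 to 0.16). No member was called by edgeR or by DESeq2, 1 had an unadjusted p under 0.05, which was Slc30a1 (0.25, SE 0.11, adjusted p = 0.144), and 4.54% of all genes were called.

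Levels of Mt1 and Mt2 were lower in AS than in WT mice of the acute cohort. Averaged over the treatments, the log2 difference was -0.22 for Mt1 (SE 0.07, adjusted p = 0.0256), -0.41 for Mt2 (SE 0.07, adjusted p = 0.000501) and -0.20 for Mt3 (SE 0.07, adjusted p = 0.0626). The value of Mt3 missed the threshold in edgeR and passed it in DESeq2 (adjusted p = 0.0444), and in edgeR it passed without any 1 of 5 libraries (WT CORT H9, H10 or H12, AS vehicle H18 or AS CORT H20), at -0.23 to -0.22. The exporters were higher in AS mice, Slc30a1 by 0.19 (SE 0.05, adjusted p = 0.0184) and Slc30a10 by 0.16 (SE 0.05, adjusted p = 0.0399). These 4 calls among 7 members stand beside 14.4% of all genes. Of the cell markers, 2 of 3 choroid plexus markers tested were lower in AS mice, Ttr (-3.72, adjusted p = 0.0158) and Sostdc1 (-0.69, adjusted p = 0.045), as was 1 of 5 neuronal markers, Wfs1 (-0.66, adjusted p = 0.00595), and 0 of 6 astrocyte markers were called. The summed choroid plexus markers were 29.6 to 62.5 CPM in WT CORT, 29.6 to 1068 CPM in WT vehicle, 33.0 to 50.7 CPM in AS vehicle and 29.8 to 49.4 CPM in AS CORT mice. The 1068 CPM are those of H6, without which the differences were -0.24 for Mt1 and -0.44 for Mt2, both still called by edgeR. The part of the neuronal marker was not tested.

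The genotypes also differed in a technical measure. The number of reads set aside for low alignment quality was 1877 to 2237 in 16 libraries and 2640 to 2850 in 8, and the 8 are the 6 AS CORT mice and 2 AS vehicle mice (H17 and H18), with 0 of 12 WT mice. With this division as a covariate, none of the 4 was called (Mt1 -0.17, adjusted p = 0.697, Mt2 -0.33, adjusted p = 0.372, Slc30a1 0.095, adjusted p = 0.806, Slc30a10 0.21, adjusted p = 0.481). When AS vehicle mice other than H17 and H18 were dropped, every AS library lay on the upper side and every WT library on the lower. That fit therefore says nothing on genotype apart from the low-quality reads, since the split and the genotype coincide. In it Mt1 (-0.25, adjusted p = 0.0375), Mt2 (-0.45, adjusted p = 0.000934) and Slc30a1 (0.24, adjusted p = 0.00562) were called and Slc30a10 was not (0.15, adjusted p = 0.112). Without the WT CORT mouse H11 the difference of Mt1 was -0.19 (adjusted p = 0.0511), and that of Slc30a10 lost its call without any 1 of 15 libraries, at 0.14 to 0.16.

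The same division touches the CORT effects in AS mice, since all AS CORT mice lie on its upper side. Only the AS vehicle group lies on both sides, so the covariate fit also sets AS CORT mice against H17 and H18. Like sizes in the 2 fits were thus fixed in advance, and both rest on these 2 vehicle mice. Mt2 was still called with the covariate (log2 fold change 0.78, adjusted p = 0.00295) and against H17 and H18 alone (0.78, adjusted p = 0.00728). Mt1 had a like size in both fits (0.42) and missed the threshold, with adjusted p of 0.229 and 0.265, and Slc30a1 was at 0.13 and 0.14 with adjusted p of 0.863 and 0.855. Summed markers of astrocytes, the main source of Mt1 and Mt2 in brain, were 1640 to 2008 CPM and overlapped between all 4 groups, and 1 of the 6 markers rose with CORT in either genotype. Microglia markers fell for 2 of 4 genes in both genotypes, the summed endothelial markers of AS mice were 110 to 135 CPM with vehicle and 90.7 to 104 CPM with CORT, 1 of 4 thalamus markers rose in AS mice and with the genotypes averaged (Rora, averaged 0.22, adjusted p = 0.0166), and the part of any cell type in these results was not tested.

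**Figure D2:**
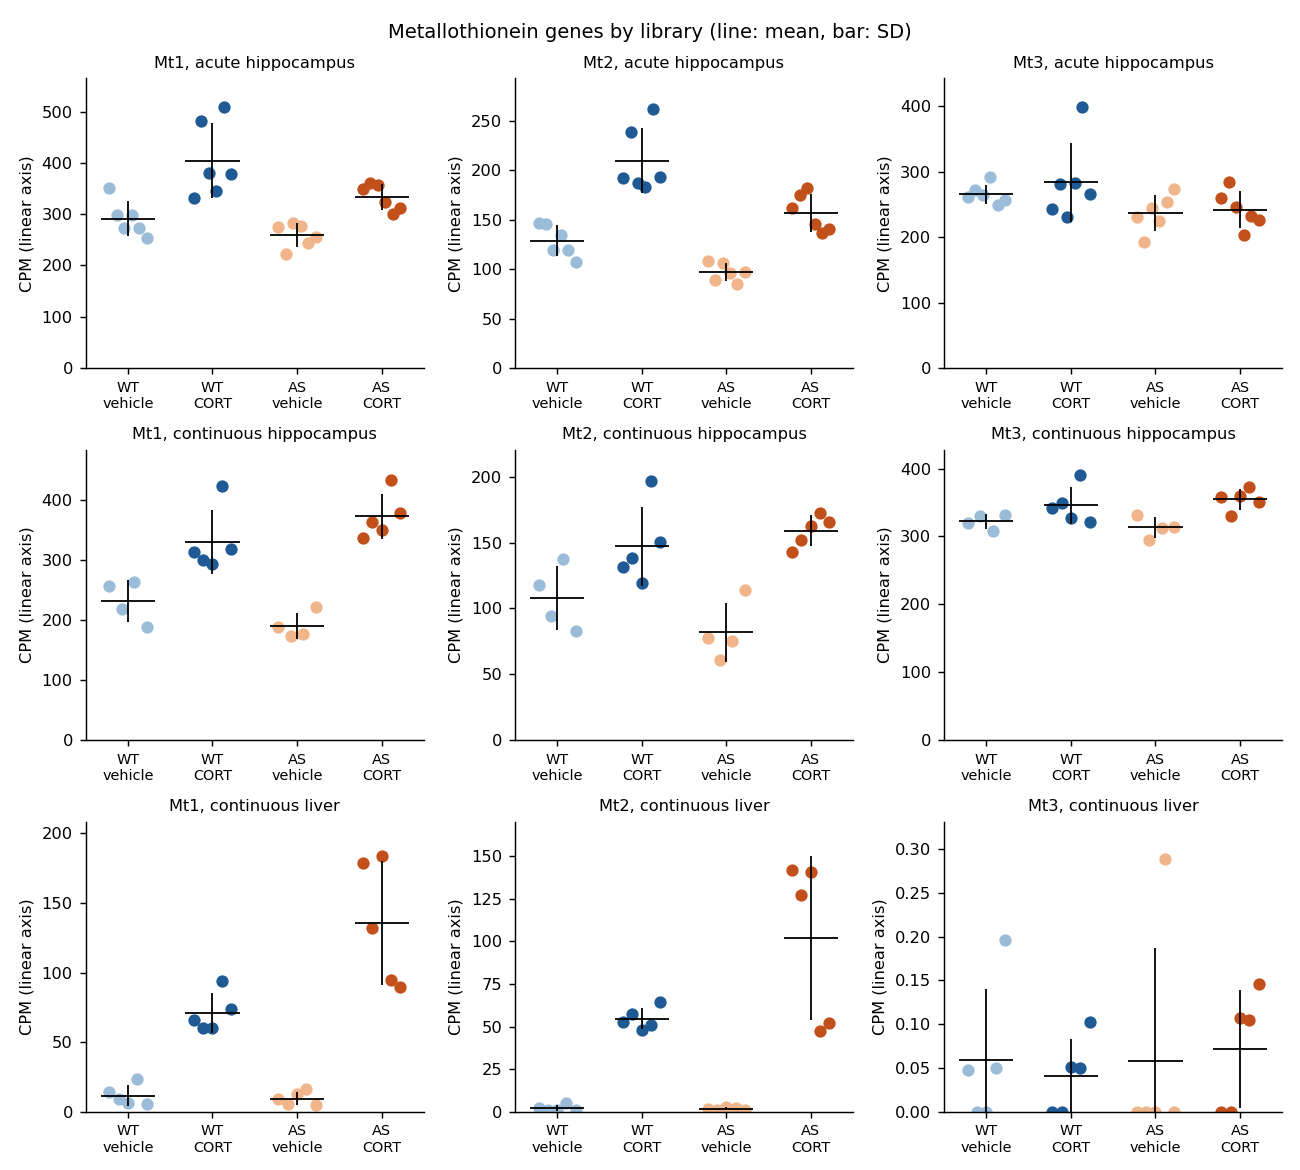
CPM (linear axis) of Mt1, Mt2 and Mt3 in each library of the acute hippocampus, continuous hippocampus and liver, by genotype and treatment, with the group mean as a line and the SD as a bar. The means of Mt1 and Mt2 are higher with CORT in both genotypes of every row, and Mt3 stays below 0.30 CPM in liver.

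After 5 days of CORT, Mt1 rose in the hippocampus of both genotypes and Mt2 in that of AS mice. Mt1 was 188, 218, 257 and 263 CPM in the WT vehicle mice and 292, 300, 313, 319 and 423 CPM in the WT CORT mice. In the AS vehicle mice it was 173, 176, 189 and 221 CPM, and in the AS CORT mice 336, 350, 364, 378 and 434 CPM. No CORT mouse was as low as any vehicle mouse of its genotype. The log2 fold change was 0.51 in WT mice (SE 0.12, adjusted p = 0.0199) and 0.97 in AS mice (SE 0.12, adjusted p = 3.85e-05). In WT mice the call was lost without H6 (0.42, adjusted p = 0.0695), without H17 (0.48, adjusted p = 0.0724) and when the WT groups were fitted alone (0.51, adjusted p = 0.0738).

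Mt2 was 83.0, 93.98, 118 and 137 CPM in the WT vehicle mice and 119, 131, 138, 150 and 197 CPM in the WT CORT mice. In the AS vehicle mice it was 60.5, 75.2, 77.6 and 114 CPM, and in the AS CORT mice 143, 152, 163, 166 and 173 CPM. The WT groups overlapped and the AS groups did not. It changed on the log2 scale by 0.96 in AS mice (SE 0.17, adjusted p = 0.00217), and in WT mice it was 0.45 and was not called (SE 0.17, adjusted p = 0.182). Leaving out 1 library at a time gave values from 0.32 to 0.59 in WT mice, none of them called.

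The test of the genotype difference did not call these effects apart. The interaction was 0.46 for Mt1 (95% interval 0.12 to 0.80, unadjusted p = 0.01) and 0.51 for Mt2 (0.02 to 1.01, unadjusted p = 0.0424) in edgeR's quasi-likelihood test, both with an adjusted p of 1. These 2 had an unadjusted p under 0.05, and no member and 0% of all 14949 genes were called by edgeR, while DESeq2 called no member either. Between AS and WT mice, averaged over treatments, Mt1 (-0.055, SE 0.08, adjusted p = 0.816) and Mt2 (-0.15, SE 0.12, adjusted p = 0.637) were not called. No member was called there by either tool, 1 (Slc39a14) had an unadjusted p under 0.05, and 0.348% of all genes were called.

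Mt3, the metallothionein that marks the nervous system, moved less than Mt1 and Mt2. It was 308, 319, 330 and 332 CPM in the WT vehicle mice and 322, 327, 342, 349 and 391 CPM in the WT CORT mice. In AS mice it was 294, 313, 314 and 331 CPM with vehicle and 331, 350, 358, 360 and 373 CPM with CORT. The groups overlapped at their edges in both genotypes. Averaged over genotypes it rose by 0.14 on the log2 scale (SE 0.04, adjusted p = 0.024), a call that was lost without the AS vehicle mouse H14 (0.13, adjusted p = 0.0511). As Mt1 rose, the median ratio of Mt3 to Mt1 CPM went from 1.38 to 1.09 between vehicle and CORT in WT mice and from 1.73 to 0.926 in AS mice.

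Slc30a10 was the member that fell. It was 16.6, 18.3, 20.7 and 24.5 CPM in the WT vehicle mice and 14.5, 15.3, 16.002, 17.03 and 18.2 CPM in the WT CORT mice. AS mice had 18.8, 19.8, 21.2 and 24.1 CPM with vehicle and 16.1, 16.4, 17.4, 17.9 and 18.1 CPM with CORT. The WT groups overlapped and the AS groups did not. Averaged over genotypes the log2 fold change was -0.30 (SE 0.07, adjusted p = 0.01), and it was called under all 22 alternatives at -0.40 to -0.24.

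In all, 4 of 7 members (Mt1, Mt2, Mt3 and Slc30a10) were called with the genotypes averaged, beside 9.67% of all genes, where Mt1 changed by 0.74 (SE 0.08, adjusted p = 6.39e-06) and Mt2 by 0.70 (SE 0.12, adjusted p = 0.000684). In WT mice 1 of 7 was called, beside 2.92% of all genes, and in AS mice 2 of 7, beside 3.77%. In AS mice DESeq2 also called Mt3, which missed the threshold in edgeR (0.18, SE 0.05, adjusted p = 0.081). Slc39a14 (0.14, SE 0.05, adjusted p = 0.1), Slc30a1 (-0.13, SE 0.05, adjusted p = 0.119) and Mtf1 (0.057, SE 0.05, adjusted p = 0.58) were not called. Their mean levels in the 4 groups were 40.5 to 48.5 CPM, 32.7 to 37.3 CPM and 31.0 to 33.3 CPM. The median of the 7 log2 fold changes was 0.14. Without the WT vehicle mouse H4, Slc39a14 passed at 0.17 (adjusted p = 0.0442).

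Markers of other cells moved in this tissue too. Microglia markers fell for 3 of 4 genes, and their summed level was 217 to 241 CPM in WT vehicle and 181 to 203 CPM in WT CORT mice, and 199 to 223 and 174 to 197 CPM in AS mice, without overlap. Of 6 astrocyte markers 1 rose and 4 fell. Their sum overlapped between WT vehicle (1990 to 2305 CPM) and WT CORT mice (1941 to 2273 CPM), and in AS mice it was 1909 to 1978 CPM with vehicle and 1985 to 2311 CPM with CORT, just without overlap. Of 4 endothelial markers 2 fell and of 4 thalamus markers 1 fell with the genotypes averaged, and in WT mice 2 of 5 choroid plexus markers tested fell, Ttr (-4.57, adjusted p = 0.0484) and Folr1 (-3.35, adjusted p = 0.0253). The summed choroid plexus markers were 78.2 to 2887 CPM in WT vehicle and 38.0 to 128 CPM in WT CORT mice. None of 5 neuronal markers was called, and the part of these changes in the metallothionein values was not tested. In the left-out libraries, Mt1 was 235 CPM in H13 and 193 CPM in H9, within the range of their groups, and Slc30a10 was 28.3 and 28.2 CPM, above it. With both libraries kept the averaged log2 fold changes were 0.74 for Mt1, 0.75 for Mt2, 0.20 for Mt3 and -0.40 for Slc30a10, and the same 4 members were called.

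Slc39a4, an importer known from the gut, was close to the floor in hippocampus and was highest in the libraries with the most RNA of choroid plexus, the tissue that makes cerebrospinal fluid. In the acute cohort it was 0 to 0.538 CPM in 23 libraries and 1.80 CPM in H6, a WT vehicle mouse. The sum of 6 choroid plexus markers was 29.6 to 93.95 CPM in the 23 and 1068 CPM in H6. In the continuous cohort H13, which was left out of the tests, had 16.3 CPM of Slc39a4 and 13027 CPM of the markers, and the other 19 libraries had 0.0925 to 3.15 CPM and 38.0 to 2887 CPM. Across libraries the log2 values had a Pearson correlation of 0.890 over 24 acute and 0.936 over 20 continuous libraries, given as a description because the points share few libraries with high values and a low read count. Slc39a4 was not tested in hippocampus, and the part of the choroid plexus was not tested.

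**Figure D3:**
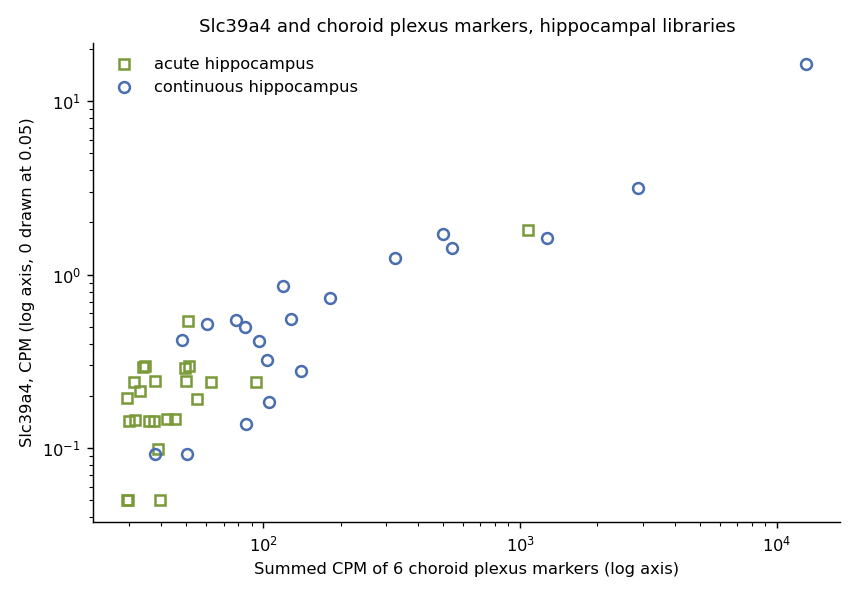
Slc39a4 level in CPM against the summed CPM of 6 choroid plexus markers in all 44 hippocampal libraries, both on log axes, with Slc39a4 values under 0.05 drawn at 0.05. Squares are the acute and circles the continuous cohort. The highest point is H13 with 16.3 CPM of Slc39a4, and H6 stands apart from the other acute libraries at 1.80 CPM.

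In liver, with the genotypes averaged, 5 days of CORT raised Mt1, Mt2, Slc39a14 and Slc30a1 and lowered Slc39a4. Before the values, 6 libraries must be named that stand apart from the others on the second principal component (19.02% of the variance of 500 genes, members left out): L1 and L4 (WT vehicle), L2 (AS vehicle), L3 (WT CORT), and L7 and L8 (AS CORT). They scored 10.3 to 26.5 and the other 14 scored -12.0 to -2.60. The labels give no reason, and results that change without them are given with both values.

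Mt2 was 0.892, 0.963, 1.23, 1.92 and 4.92 CPM in the WT vehicle livers and 47.7, 51.0, 53.0, 57.6 and 64.2 CPM in the WT CORT livers. In the AS vehicle livers it was 0.784, 0.953, 1.77, 1.92 and 2.95 CPM, and in the AS CORT livers 47.6, 51.9, 127, 141 and 142 CPM. All CORT livers were far above all vehicle livers, and the 2 low AS CORT livers are L7 and L8. Its log2 change was 4.78 in WT mice (SE 0.44, adjusted p = 2.47e-07) and 5.92 in AS mice (SE 0.46, adjusted p = 1.6e-08), and the ratio of mean CPM was 27.6 and 60.8. Without the 6 libraries the log2 values were 5.75 and 6.39.

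Mt1 was 5.45, 6.45, 8.92, 13.8 and 23.4 CPM in the WT vehicle livers and 60.0, 60.1, 66.0, 73.8 and 94.2 CPM in the WT CORT livers. In the AS vehicle livers it was 4.51, 5.20, 8.99, 12.4 and 16.4 CPM, and in the AS CORT livers 89.8, 95.01, 132, 179 and 184 CPM. Again the groups did not overlap, and the highest vehicle livers, L4, L2 and L1, are among the 6. The log2 fold change was 2.61 in WT mice (SE 0.38, adjusted p = 6.06e-05) and 3.84 in AS mice (SE 0.40, adjusted p = 6.77e-07), with ratios of mean CPM of 6.09 and 14.3. Without the 6 libraries the log2 values were 3.23 and 4.40. The median ratio of Mt1 to Mt2 CPM was 6.70 in WT vehicle (4.44 to 10.0) and 1.25 in WT CORT livers (1.04 to 1.85), and 5.08 (4.21 to 8.53) and 1.305 (1.03 to 1.997) in AS livers.

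Slc39a14, the importer through which hepatocytes take up zinc in inflammation, was 130, 130, 153, 186 and 216 CPM in the WT vehicle livers and 223, 226, 227, 233 and 251 CPM in the WT CORT livers. Those of AS mice were 109, 121, 122, 139 and 200 CPM with vehicle and 214, 230, 242, 261 and 283 CPM with CORT. The groups did not overlap, and the highest vehicle values were again L4, L2 and L1. It changed on the log2 scale by 0.51 in WT mice (SE 0.15, adjusted p = 0.022) and 0.83 in AS mice (SE 0.15, adjusted p = 0.000338). The WT call was lost without WT CORT L5 (0.49, adjusted p = 0.0526), WT vehicle L13 (0.44, adjusted p = 0.062) or WT vehicle L6 (0.44, adjusted p = 0.0587), and without the 6 libraries the WT value was 0.72 (adjusted p = 0.000182).

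Slc39a4 moved the other way. It was 73.2, 76.5, 77.0, 79.8 and 80.2 CPM in the WT vehicle livers and 55.4, 63.9, 68.2, 68.2 and 71.9 CPM in the WT CORT livers. Values in AS livers were 74.7, 80.6, 97.1, 99.4 and 107 CPM with vehicle and 50.3, 54.9, 57.6, 60.3 and 66.4 CPM with CORT. No CORT liver reached a vehicle liver of its genotype. Its log2 change was -0.66 in AS mice (SE 0.09, adjusted p = 2.69e-05), and in WT mice it was -0.24 and missed the threshold (SE 0.09, adjusted p = 0.0845). The WT value was -0.24 with the WT groups fitted alone (adjusted p = 0.0335), -0.27 with the second component as a covariate (adjusted p = 0.0333) and -0.17 without the 6 libraries (adjusted p = 0.256), over a range of adjusted p of 0.0333 to 0.256.

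Slc30a1 was 29.2, 33.0, 34.7, 35.6 and 44.5 CPM in the WT vehicle livers and 36.7, 39.4, 44.6, 45.1 and 52.2 CPM in the WT CORT livers. In AS livers it was 29.9, 30.1, 31.7, 36.0 and 37.6 CPM with vehicle and 39.2, 41.0, 43.7, 46.0 and 51.1 CPM with CORT. The WT groups overlapped and the AS groups did not. The log2 fold change was 0.42 in AS mice (SE 0.11, adjusted p = 0.00832), and 0.30 in WT mice (SE 0.11, adjusted p = 0.0651). The WT value depends on the vehicle liver L1, without which it was 0.40 (adjusted p = 0.0128), and was 0.36 without the 6 libraries (adjusted p = 0.0252).

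Slc30a10, the manganese exporter, was lowest within each group in the livers that stand apart. It was 23.4, 29.99, 78.6, 100 and 106 CPM in the WT vehicle livers and 60.9, 123, 133, 134 and 134 CPM in the WT CORT livers. AS livers had 26.6, 82.8, 101, 102 and 104 CPM with vehicle and 76.8, 90.8, 129, 133 and 137 CPM with CORT. The 6 low values, 23.4, 26.6 and 29.99 CPM with vehicle and 60.9, 76.8 and 90.8 CPM with CORT, are the 6 libraries named above. Over all 20 livers the averaged log2 fold change of 0.62 was not called (SE 0.27, adjusted p = 0.0836), while it was 0.46 without the 6 (adjusted p = 0.00011), 0.67 with the second component as a covariate (adjusted p = 1.84e-08), and 0.73 without WT vehicle L6 alone (adjusted p = 0.0471). In the 14 other livers, vehicle values of 78.6 to 106 CPM and CORT values of 123 to 137 CPM did not overlap.

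Mtf1, the sensor, was 16.6, 16.8, 19.3, 22.6 and 24.1 CPM in the WT vehicle livers and 18.6, 18.9, 19.9, 19.9 and 25.7 CPM in the WT CORT livers. In AS livers it was 14.4, 14.5, 15.1, 15.1 and 22.8 CPM with vehicle and 16.6, 20.3, 21.7, 22.9 and 23.7 CPM with CORT. The groups overlapped in both genotypes, and the high values of 24.1, 22.6, 22.8 and 25.7 CPM are L4, L1, L2 and L3. The averaged log2 fold change of 0.21 was not called (SE 0.10, adjusted p = 0.115), and was 0.28 without the 6 libraries (adjusted p = 0.00423), 0.25 with the covariate (adjusted p = 0.000182) and 0.28 without AS vehicle L2 alone (adjusted p = 0.0136). In AS livers alone DESeq2 called Mtf1, while edgeR had it at an unadjusted p under 0.05 and did not call it.

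**Figure D4:**
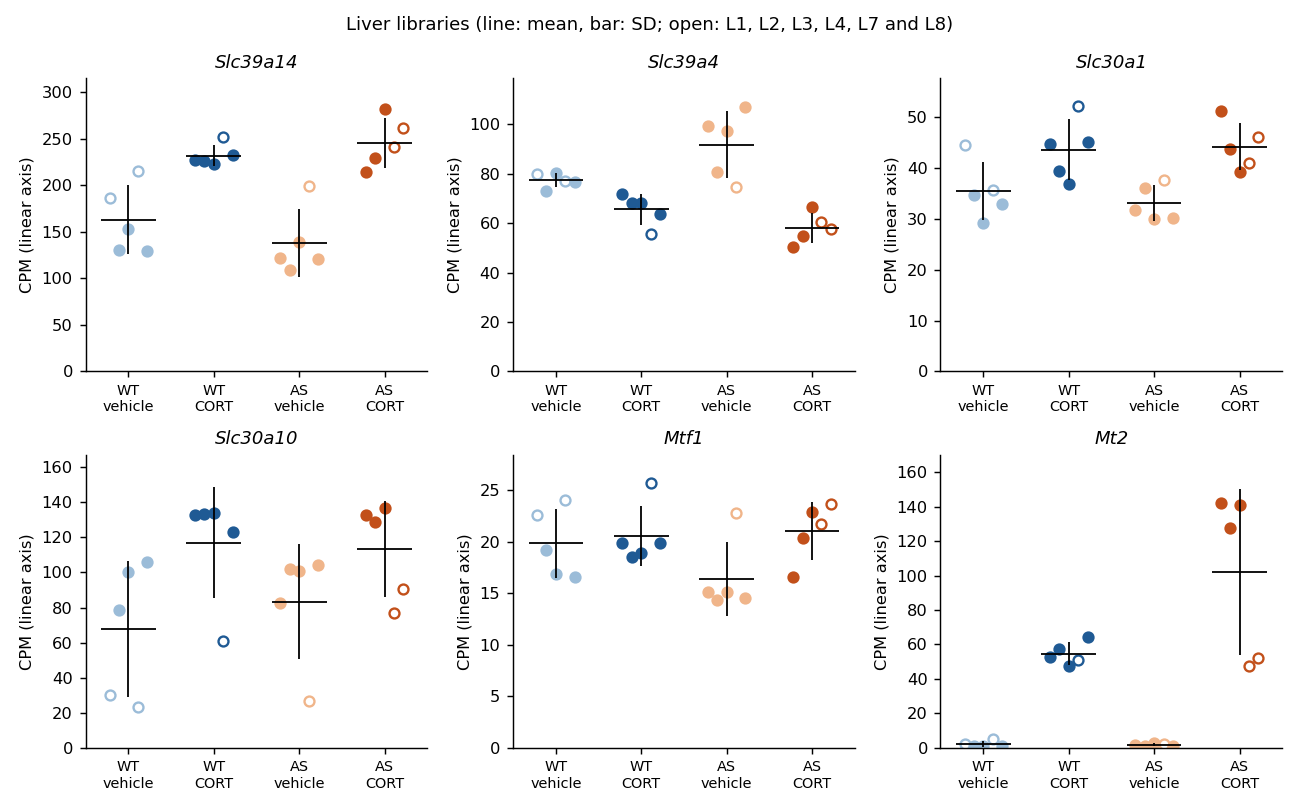
CPM (linear axis) of 6 members in each liver library, by genotype and treatment, with the mean as a line and the SD as a bar; open symbols are L1, L2, L3, L4, L7 and L8. The open symbols hold the 6 lowest values of Slc30a10 within their treatment and the 2 lowest AS CORT values of Mt2.

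In WT livers 3 of 7 members were called, beside 18.6% of the 12273 genes tested, and in AS livers 5 of 7, beside 27.5%. With the genotypes averaged 5 of 7 were called, beside 37.1%: Mt1 (3.22, SE 0.27, adjusted p = 2.03e-08), Mt2 (5.35, SE 0.32, adjusted p = 1.17e-10), Slc39a14 (0.67, SE 0.11, adjusted p = 4.98e-05), Slc39a4 (-0.45, SE 0.07, adjusted p = 2.08e-05) and Slc30a1 (0.36, SE 0.08, adjusted p = 0.00122). The median log2 fold change of the 7 was 0.62. Without the 6 libraries these averaged values were 3.82 for Mt1, 6.07 for Mt2, 0.85 for Slc39a14, -0.46 for Slc39a4 and 0.42 for Slc30a1, all called. In WT livers the count was 7 with the second component as a covariate and 5 without the 6 libraries.

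Between AS and WT livers no member was called by edgeR or DESeq2 and none had an unadjusted p under 0.05, beside 0.326% of all genes called by edgeR. Averaged over treatments the log2 difference was 0.33 for Mt1 (SE 0.26, adjusted p = 0.74) and 0.33 for Mt2 (SE 0.31, adjusted p = 0.785), and without the 6 libraries 0.76 (adjusted p = 0.0884) and 0.97 (adjusted p = 0.0562). The interaction was 1.23 for Mt1 (95% interval 0.15 to 2.30, adjusted p = 0.553), 1.14 for Mt2 (-0.14 to 2.41, adjusted p = 0.661) and -0.43 for Slc39a4 (-0.70 to -0.15, adjusted p = 0.474). Neither tool called a member, Mt1 and Slc39a4 had an unadjusted p under 0.05, and edgeR called 0% of all genes.

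Kupffer cell (liver macrophage) markers moved with CORT in liver: 4 of 4 fell in both genotypes, and their sum was 129 to 175 CPM in WT vehicle and 63.3 to 93.7 CPM in WT CORT livers, and 175 to 245 and 67.4 to 96.5 CPM in AS livers. Hepatocyte markers summed to 88661 to 101071 CPM in WT vehicle, 92555 to 110123 CPM in WT CORT, 88315 to 119966 CPM in AS vehicle and 108094 to 131339 CPM in AS CORT livers, and overlapped between treatments, with 1 of 4 markers higher. Pancreas markers, checked because Slc39a4 and other transporters are high in that organ, summed to 0.148 CPM or less in every liver. Of the liver endothelial markers 2 of 3 fell in AS livers and with the genotypes averaged and 0 of 3 were called in WT livers, and of the stellate cell markers 1 of 3 fell in AS livers, Lrat (-0.94, adjusted p = 0.0223). The part of Kupffer, endothelial and stellate cells in the results was not tested.

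The CORT effect was called different between liver and the hippocampus of the same cohort for 5 of 6 members tested in both tissues, and all 5 had the higher log2 fold change in liver. Of the 11017 genes tested in both, 25.5% were called, in either direction. The test took all libraries as independent, although the study collected both tissues from the same mice. A fit that pairs them by number, in which no call on a member changed, is given at the end. The difference of the log2 fold changes, liver minus hippocampus and averaged over genotypes, was 4.65 for Mt2 (SE 0.32, adjusted p = 3.95e-13), 2.48 for Mt1 (SE 0.28, adjusted p = 2.69e-08), 0.91 for Slc30a10 (SE 0.32, adjusted p = 0.0298), 0.53 for Slc39a14 (SE 0.13, adjusted p = 0.00186) and 0.49 for Slc30a1 (SE 0.10, adjusted p = 0.000253). For Mtf1 it was 0.15 (SE 0.12, adjusted p = 0.386). Without the 6 liver libraries the differences were 5.37 for Mt2, 3.08 for Mt1, 0.76 for Slc30a10, 0.72 for Slc39a14, 0.56 for Slc30a1 and 0.23 for Mtf1, which then passed (adjusted p = 0.0333). Levels of metallothioneins were lower in liver, though scaled separately, where vehicle mice had at most 23.4 CPM of Mt1 and 4.92 CPM of Mt2. With CORT the hippocampus of this cohort had 292 CPM or more of Mt1 and the liver 184 CPM or less, while Mt2 overlapped, at 119 to 197 CPM in hippocampus and 47.6 to 142 CPM in liver.

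**Figure D5:**
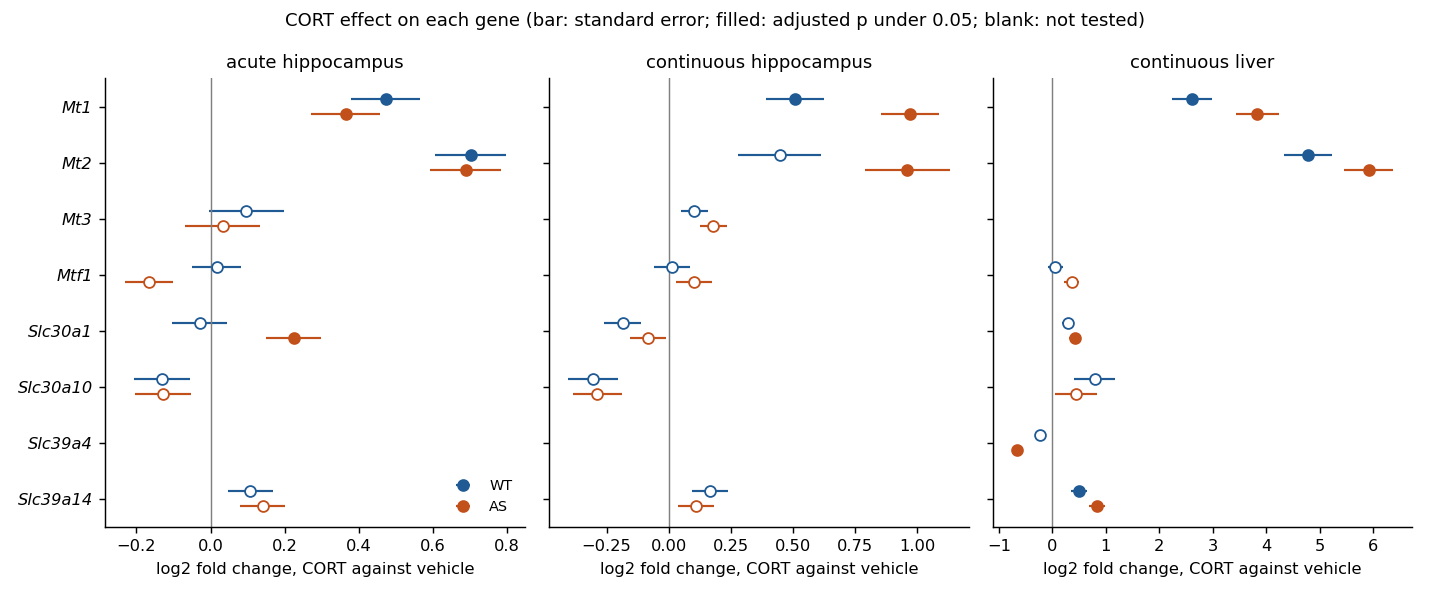
Log2 fold change of CORT against vehicle for each member in WT and AS mice of the 3 sets, with the standard error as a bar; filled symbols have an adjusted p under 0.05, and a member without a symbol was not tested. Mt1 and Mt2 lead in every set, and the axis of the liver reaches 5.92 for Mt2 in AS mice, where the hippocampal axes end near 1.

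Counts for other genes of metal handling, with the genotypes averaged, stand beside the 7.05%, 9.67% and 37.1% of all genes called in the acute hippocampus, the continuous hippocampus and the liver. Of the other SLC30 genes, which move zinc out of the cytosol, 0 of 6 were called in either hippocampal set with genotypes averaged by edgeR or DESeq2, with 0 at an unadjusted p under 0.05, and in liver 1 of 5 was higher (Slc30a4, 0.30, SE 0.05, adjusted p = 6.3e-05), while DESeq2 also called Slc30a9. The medians of their log2 fold changes were -0.016, 0.019 and 0.10 in the 3 sets. Averaging can hide opposite effects. Slc30a5 was at -0.15 in WT and 0.14 in AS mice of the acute cohort, neither called. Its interaction was called by edgeR (0.28, SE 0.08, adjusted p = 0.0392), beside 4.54% of all genes, in a contrast that the low-quality division touches. Of the other SLC39 importers, edgeR called 0 of 11 in the acute hippocampus, where 2 had an unadjusted p under 0.05 and DESeq2 called 1, Slc39a8, and the 3 medians were -0.036, -0.025 and -0.0048. In acute AS mice alone edgeR called Slc39a6 (0.40, SE 0.13, adjusted p = 0.0272) and Slc39a13 (-0.22, SE 0.06, adjusted p = 0.0194), beside 17.8% of all genes. In the continuous hippocampus 2 of 10 fell, Slc39a8 (-0.49, SE 0.11, adjusted p = 0.0078) and Slc39a12 (-0.18, SE 0.05, adjusted p = 0.02). In liver 4 of 11 were called. Slc39a6 rose (0.67, SE 0.10, adjusted p = 2.9e-05), and Slc39a1 (-0.20, SE 0.05, adjusted p = 0.0017) and Slc39a3 (-0.13, SE 0.05, adjusted p = 0.036) fell, of which Slc39a3 was not called by DESeq2. The fourth, Slc39a5, had 4 to 10 reads in vehicle livers and 13 to 39 with CORT, and passed the filter only through CORT livers, where it was high, so its means of 0.288 and 1.596 CPM in WT and 0.314 and 0.879 CPM in AS mice are given as a description.

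Of 5 further genes linked to MTF1, 0 rose in either hippocampal set and 1 in liver, and their medians were -0.016, 0.037 and -0.40 in the 3 sets. Slc40a1, the iron exporter ferroportin, fell in the acute (-0.34, SE 0.08, adjusted p = 0.0085) and in the continuous hippocampus (-0.64, SE 0.07, adjusted p = 1.1e-05), as 1 of 5 in each, and rose in liver (0.53, SE 0.11, adjusted p = 0.00081). In liver 3 of the 5 fell: Gclc, which makes glutathione (-0.84, SE 0.16, adjusted p = 0.00037), Csrp1 (-0.40, SE 0.11, adjusted p = 0.0079) and Ndrg1 (-1.01, SE 0.38, adjusted p = 0.045). Of the copper genes 0 of 6 were called in the acute hippocampus by edgeR or DESeq2, with 1 at an unadjusted p under 0.05. In the continuous hippocampus 2 of the 6 fell, the importer Slc31a1 (-0.33, SE 0.09, adjusted p = 0.022) and the chaperone Atox1 (-0.17, SE 0.05, adjusted p = 0.029), and their medians were 0.070, -0.12 and -0.089. In liver 2 copper genes rose, Cp (ceruloplasmin, 0.69, SE 0.07, adjusted p = 1.2e-07) and Atox1 (0.19, SE 0.06, adjusted p = 0.016), and 2 fell, the copper pump Atp7b (-0.40, SE 0.06, adjusted p = 1.5e-05) and the chaperone Ccs (-0.17, SE 0.04, adjusted p = 0.0015).

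Metallothionein genes and Slc39a14 also respond to interleukin 6 in liver, and of 7 genes with that property, whose median was -0.51, edgeR called 4, beside 37.1% of all genes, and DESeq2 called 5: 1 rose, Lcn2 (2.83, SE 0.27, adjusted p = 1.1e-07), and 3 fell, Saa1 (-1.96, SE 0.25, adjusted p = 3.8e-06), Saa2 (-1.08, SE 0.27, adjusted p = 0.0039) and Orm2 (-0.72, SE 0.25, adjusted p = 0.026), and Socs3 passed in DESeq2 alone. Mt4, the metallothionein of squamous epithelia, did not pass the filter in any set.

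The genes whose levels followed Mt2 most closely across libraries were named by the Pearson correlation of log2 CPM, a description over libraries that share treatment and cohort. In each set Mt1 was close to Mt2, at 0.951 over 24 acute libraries, 0.959 over 18 continuous hippocampal libraries and 0.980 over 20 livers. The closest others were Pnpla2 (0.935), Sdc4 (0.913), Gjb6 (0.898), Htra1 (0.890) and Ucp2 (0.887) in the acute hippocampus, and Sdc4 (0.954), Xdh (0.951), Atp10a (0.938), Elmod3 (0.924) and Tsc22d3 (0.922) in the continuous one. In liver they were Fkbp5 (0.978), Cdip1 (0.976), Gm47465 (0.974), E030018B13Rik (0.973) and Cyp39a1 (0.968). Mt3 followed Mt2 at 0.528 and 0.711 in the hippocampal sets, Slc39a14 at 0.870 and Slc39a4 at -0.794 in liver, and Slc30a10 at -0.682 in the acute hippocampus.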

How the data were processed

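RNA-seq libraries of hippocampus and liver from WT and AS mice were analysed as 3 sets of 4 groups taken from the sample labels. The authors sequenced stranded mRNA libraries, used STAR for alignment to mm10 and HTSeq-count for counting genes, within the BioWDL pipeline, and deposited raw counts without normalization or pooling. The annotation release, and whether counting used strand, are not given in the sources used here. Rows of reads on no gene (13.0 to 15.9% of acute, 11.7 to 13.9% of continuous hippocampal and 15.4 to 23.3% of liver reads) stayed out of library sizes and tests, and 0 columns belonged to no sample.

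Symbols and positions came from GENCODE M21 (GRCm38) and promoters from RefSeq. Genes with more than 20 median-of-ratios counts in at least 3 libraries of a group were tested in edgeR 4.0.16 (R 4.3.3) by its quasi-likelihood F test after TMM normalization, with the 4 groups of a set in 1 fit and Benjamini-Hochberg adjustment over all genes tested at 0.05. CPM are TMM-scaled, and a prior count of 2 entered log2 CPM. The test was checked on simulated counts with 200 changed genes. Alternatives were DESeq2 1.42.0, its size factors, no filter, fits of 2 groups, each library left out in turn, all 20 continuous hippocampal libraries, the division by low-quality reads, a replicate block, and, chosen after seeing the data, the second liver component as a covariate and the 6 liver libraries left out. The members and gene lists were chosen with earlier results of these data known. All 8 members are named, with Fkbp5, Tsc22d3 and Ube3a as checks, at most 4 genes of each other list per set (the smallest adjusted p of the averaged CORT effect among those called) and the 5 genes closest to Mt2 in each set. Cell markers (Ttr, Folr1, Sostdc1, Wfs1, Rora, Lrat), transporters called in other acute contrasts (Slc30a5, Slc39a6, Slc39a13) and genes called by DESeq2 alone were named outside this rule, after their values were seen. P-values cover the spread between mice of 1 experiment per cohort.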

Additional observations from a re-analysis of the deposited data

Results flagged for a closer look

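Among 94 groups of 4 to 6 libraries, 12 held a library far from the others of its group by Dixon's test, which chance alone gives in about 1 of 20 groups. In liver, L4 had 4.92 CPM of Mt2 (other WT vehicle livers 0.892 to 1.92), L2 had 22.8 CPM of Mtf1 (other AS vehicle livers 14.4 to 15.1) and 26.6 CPM of Slc30a10 (82.8 to 104), and L3 had 25.7 CPM of Mtf1 (other WT CORT livers 18.6 to 19.9) and 60.9 CPM of Slc30a10 (123 to 134). Mt3 reached 0.288 CPM in L2, with 0 in the other AS vehicle livers, and 0.196 CPM in WT vehicle liver L6. L2, L3 and L4 are among the libraries that stand apart on the second component, and hold 6 of the 12. In the hippocampus, Mt1 was 423 CPM in H3 of the continuous WT CORT mice (others 292 to 319), and Mt3 was 399 CPM in H8 of the acute WT CORT mice (230 to 283). Slc39a4 stood apart at 1.80 CPM in acute WT vehicle H6, at 0.538 CPM in acute AS vehicle H13 and at 1.71 CPM in continuous AS CORT H16.

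The CORT effect differed between liver and hippocampus of the continuous cohort, by an interaction of tissue and treatment, for Mt1 (2.48 on the log2 scale), Mt2 (4.65), Slc30a1 (0.49), Slc30a10 (0.91) and Slc39a14 (0.53).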

How the results depend on the processing

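Counts of members called changed by over 1.5 times in these cases. In the acute cohort, fits of the 2 groups compared gave 1 call for CORT in WT mice in place of 2, CORT in AS mice gave 1 in place of 3 with the low-quality division as a covariate or when only H17 and H18 stood for AS vehicle mice, and AS against WT gave 0 in place of 4 with the covariate and 2 to 5 with a library left out, where 2 came without WT CORT H11. In the continuous hippocampus, CORT in WT mice gave 2 in place of 1 without the filter, 0 in the fit of 2 groups and 0 to 1 with a library left out. In WT livers the count was 7 with the second component as a covariate and 5 without the 6 libraries, in place of 3. The acute interaction of Mt2 turned from -0.013 to 0.0736 with the covariate and to 0.0709 against H17 and H18, and ran from -0.0695 to 0.0604 with a library left out. The remaining 72 counts under other settings and 307 with a library left out stayed within 1.5 times. For single members, 290 values under other settings and 1152 with a library left out kept direction and call, 13 and 28 lost a call, 15 and 12 gained one, and 2 and 8, all of the Mt2 interaction, changed sign. The cause of these changes was not tested.

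Over all genes, the low-quality covariate took the acute calls from 2103 to 4 for AS against WT, from 2596 to 148 for CORT in AS mice, from 1030 to 471 for the averaged CORT effect and from 664 to 1 for the interaction, and H17 and H18 alone gave 3759, 130, 448 and 0. The acute interaction had 1131 calls in DESeq2 and 297 without the filter, and CORT in WT mice 133 of 210 in the fit of 2 groups. With H9 and H13 kept, calls in the continuous hippocampus went from 436 to 180 for CORT in WT, from 564 to 220 in AS mice and from 52 to 2 for AS against WT, for which DESeq2 gave 291, and the fit of 2 groups gave 274 for CORT in WT. In liver, AS against WT had 40 calls, 96 in DESeq2 and 92 with the second component, and the interaction 0 calls, 10 in DESeq2, 2 with the second component, 2 without the filter and 1 without the 6 libraries. With the replicate block, pairing hippocampus and liver by number, the differences were 2.45 for Mt1, 4.49 for Mt2, 1.15 for Slc30a10, 0.50 for Slc39a14, 0.48 for Slc30a1 and 0.13 for Mtf1, with 2384 calls over all genes in place of 2811, and no call on a member changed. The 18 same-numbered pairs correlated at -0.0942 to 0.0888, and 0 correlated best with their own number. For single members, Pearson correlations across the 18 pairs were 0.51 for Mt1, 0.37 for Mt2, 0.52 for Slc30a1 and -0.51 for Slc30a10. They were 0.38 for Slc39a14 and -0.048 for Mtf1, and none of the 6 passed 0.05 after adjustment. Mt3 in liver and Slc39a4 in hippocampus had few reads in most libraries, so their values carry a large counting error.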
